A study of Mus musculus with 12 samples.

Results

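The transcripts of 10 immediate-early and AP-1 genes were examined in tumour-associated macrophages (TAMs): Fos, Fosb, Jun, Junb, Jund, Egr1, Atf3, Ier2, Dusp1 and Zfp36. They were chosen by name as a family, from a table of 24781 rows, of which 9580 passed a mean above 1 normalised molecule and were tested. All 10 were in the table and all 10 passed. TAMs came from wild-type (WT) mice that carried tumours of MC38, a mouse colon adenocarcinoma line, and had been given either picrotoxin, a blocker of the GABA type A receptor channel, or its solvent DMSO. For every library in both groups, 100 CD45+CD11b+F4/80high cells were sorted on day 7 from a tumour digested with collagenase, and 6 libraries were numbered 1 to 6 within each group. The labels give no age of the mice. They call the libraries independent preparations. The methods of the study describe a mouse for each library, whereas a figure legend describes fewer mice than libraries, and the labels do not say which libraries would share one. Here n counts libraries, and any sharing would make the p-values too small. As cells were counted out in bulk, fewer cells of a type and less RNA per cell cannot be told apart. Cell dissociation and sorting are known to induce immediate-early genes. Both groups went through them, and their part in the levels below was not tested.

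Immediate-early genes are transcribed within minutes of a stimulus, without new protein synthesis, when MAP kinases and calcium signals activate factors already bound at their promoters. FOS and JUN proteins pair through leucine zippers to form AP-1, which binds DNA and controls cytokine, protease and survival genes in activated macrophages. The response is limited by products of the same wave, among them the MAP kinase phosphatase DUSP1 and the mRNA decay factor ZFP36.

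Such promoters carry short elements for these factors, so the RefSeq promoters of 4 of the genes (build GRCm38.p6, 250 bases before to 50 after the annotated start, in the direction of transcription) are shown. Fosb and Atf3 are printed as the pair with an unadjusted p under 0.05, Fos as the closest relative of Fosb, and Dusp1 as the gene whose difference changed most between library numbers. Fosb lies at chr7:19309996-19310295 on the minus strand, Fos at chr12:85473640-85473939 on the plus strand, Atf3 at chr1:191183284-191183583 on the minus strand and Dusp1 at chr17:26508423-26508722 on the minus strand. Capitals mark every match, on either strand, to the CRE core TGACG, the full CRE TGACGTCA, the AP-1 element TGACTCA, the CArG box bound by SRF, or the TATA element TATAAA.
Fosb: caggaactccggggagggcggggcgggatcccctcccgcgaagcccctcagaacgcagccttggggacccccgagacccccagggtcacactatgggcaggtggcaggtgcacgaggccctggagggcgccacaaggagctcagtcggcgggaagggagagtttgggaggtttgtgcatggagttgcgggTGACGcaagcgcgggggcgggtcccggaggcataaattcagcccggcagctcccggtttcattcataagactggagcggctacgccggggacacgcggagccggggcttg
Fos: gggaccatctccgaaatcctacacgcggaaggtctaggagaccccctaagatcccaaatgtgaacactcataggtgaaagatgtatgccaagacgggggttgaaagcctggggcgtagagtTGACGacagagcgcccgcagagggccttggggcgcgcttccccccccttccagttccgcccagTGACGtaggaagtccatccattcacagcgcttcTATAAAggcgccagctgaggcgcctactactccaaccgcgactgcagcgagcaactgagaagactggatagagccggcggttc
Atf3: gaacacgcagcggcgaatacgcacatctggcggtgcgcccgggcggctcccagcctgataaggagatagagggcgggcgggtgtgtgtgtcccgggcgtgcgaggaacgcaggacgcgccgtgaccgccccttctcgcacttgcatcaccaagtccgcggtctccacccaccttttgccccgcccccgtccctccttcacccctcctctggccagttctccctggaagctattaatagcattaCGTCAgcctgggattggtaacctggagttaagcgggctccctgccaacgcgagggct
Dusp1: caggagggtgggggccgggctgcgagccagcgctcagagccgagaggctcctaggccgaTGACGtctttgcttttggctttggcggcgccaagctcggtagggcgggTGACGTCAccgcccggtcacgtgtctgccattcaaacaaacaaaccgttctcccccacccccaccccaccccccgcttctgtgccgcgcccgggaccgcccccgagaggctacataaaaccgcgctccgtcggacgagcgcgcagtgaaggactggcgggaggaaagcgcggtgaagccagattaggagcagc

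Fosb held TGACG starting 60 bases before the start. Fos held it at 129 and 66 bases before, with TATAAA at 33 before. Atf3 held it on the opposite strand at 7 bases before. Dusp1 held TGACG at 191 bases before and the full TGACGTCA at 143 before, which contains TGACG on both strands. Of the 8 genes with a promoter in the RefSeq table (not Egr1 and Ier2), 5 held TGACG, these 4 and Junb, where 20.8% of 32851 promoters did. TGACGTCA was in 1 of 8, Dusp1, against 1.79% of all promoters, and TGACTCA in 0 of 8, against 5.2%. The CArG box was in Zfp36 alone of the 8, against 1.63%. The EGR element GCGGGGGCG, which is not in capitals, was in 2 of 8, Fosb at 50 and Zfp36 at 105 bases before the start, against 2.91%. TATAAA was in 2 of 8, Fos and Junb, against 13.6%, and in Junb it began at the annotated start itself. TGACG and GCGGGGGCG contain CG, and the GC content of the 8 promoters differed from the median of all promoters, 52.7%. It was 68.3% for Fosb, 67% for Dusp1, 65.3% for Junb, 64.7% for Atf3, 63.7% for Zfp36, 60% for Jun, 58.7% for Fos and 46.7% for Jund. The part of GC content in these shares was not tested. These matches are a description of 300 bases each and no measure of binding. The RefSeq starts used for Atf3, Dusp1 and Zfp36 lie inside the longer gene spans of the GENCODE annotation given below. The RefSeq start of Junb lies upstream of its GENCODE start. The window of Jund, one of the 8, ends upstream of its GENCODE start and does not cover it.

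Library totals were between 201697 and 309617 molecules, and a count of 0 in the smallest library would allow a share of up to 0.00149% (3 molecules, counting error only). The 10 genes together made up 0.435% ± 0.0346 of the total in DMSO and 0.462% ± 0.0612 with picrotoxin (SD, n = 6 each). These totals include the Rn45s row, which took 7.37% to 13.7% in DMSO and 11.7% to 15.2% in picrotoxin libraries. All 11 macrophage markers were tested, and they summed to 1958 to 3057 molecules in DMSO and 2103 to 2879 in picrotoxin libraries. Fibroblast and matrix markers (10 of 12 tested, none at 0 in every library) summed to 18 to 832 molecules in DMSO and 10 to 60 in picrotoxin libraries, with the highest matrix scores in DMSO 5 and DMSO 3. With the matrix score as a covariate in edgeR, the log2 fold change of Fosb was 0.58 (adjusted p = 0.434) and the unadjusted p of Atf3 was 0.318. T and NK cell markers reached 23 molecules in picrotoxin 6 and at most 1 in DMSO libraries, with Cd3e, Cd3g, Cd8a and Gzma at 0 throughout. The B cell, neutrophil, dendritic cell, epithelial and endothelial lists reached at most 21 molecules in any library, with Ly6g, Flt3, Epcam and Tek at 0.

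To ask whether blockade of the GABA type A receptor alters these transcripts in TAMs, picrotoxin was compared with DMSO. Fosb was 1.50-fold and Atf3 1.21-fold higher with picrotoxin at an unadjusted p under 0.05, and no difference held after adjustment over all tested genes. No gene of the 10 had an adjusted p under 0.05 in edgeR, with adjusted p-values from 0.130 for Fosb to 0.954 for Jun, where 5 of 9580 genes (0.0522%) did. An unadjusted p under 0.05 was obtained for 2 of 10, Fosb and Atf3, against 7.77% of all tested genes, and both were higher with picrotoxin, against 3.65% of tested genes called in that direction. DESeq2 gave 0 adjusted and 1 unadjusted, and limma-voom 0 and 2. In none of the 10 did the groups fail to overlap, against 0.386% of tested genes. The estimate was above 0 for 6 genes and below 0 for 4, with a median log2 fold change of 0.12 (0.115), against -0.01 over all tested genes. The plot of each gene by library gives the values behind these counts.

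**Figure D1:**
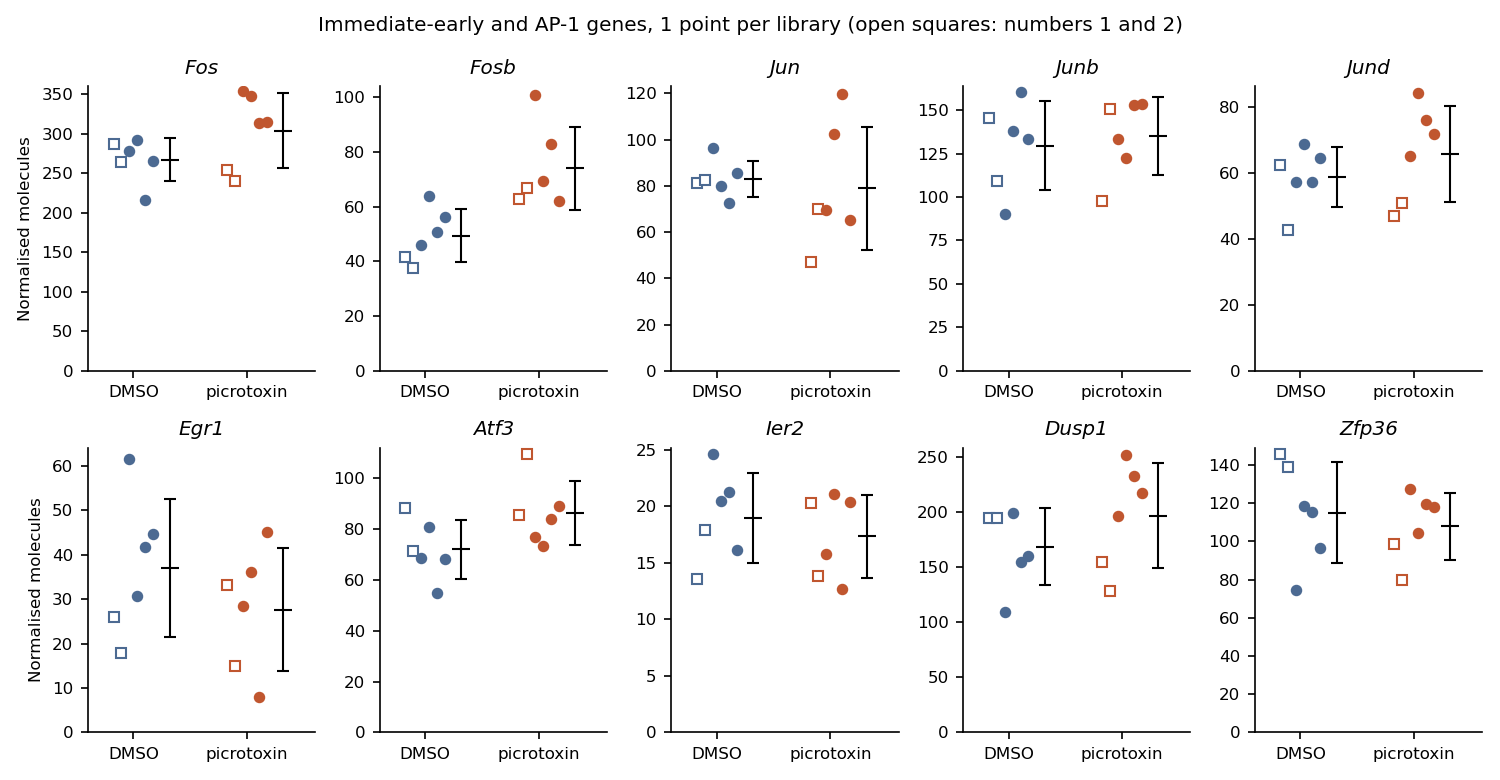
Normalised molecules of each gene (vertical axes, linear from 0) in the 6 DMSO and 6 picrotoxin libraries; 1 point is 1 library, open squares are libraries numbered 1 and 2, and black bars are the mean ± SD (n = 6). Every panel overlaps between groups, and Fosb is the gene whose picrotoxin libraries (62.1 to 101) lie highest against DMSO (37.7 to 64.0).

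FOS family. FOSB and FOS form AP-1 only as partners of JUN proteins. Fosb (chromosome 7, 19302696 to 19310051, minus strand, protein coding, GENCODE release 21 on GRCm38) was counted at 41.6, 37.7, 46.1, 64.0, 50.7 and 56.4 normalised molecules in DMSO 1 to 6 and at 62.7, 66.9, 100.9, 69.2, 82.8 and 62.1 in picrotoxin 1 to 6. All 6 picrotoxin libraries lay above the DMSO mean and 4 of them above every DMSO library, with DMSO 4 the only DMSO library within their range. The mean was 49.4 ± 9.71 in DMSO and 74.1 ± 15.1 with picrotoxin (SD, n = 6), a fold of 1.50 (95% interval 1.22 to 1.83). The log2 fold change was 0.58 ± 0.14 (SE, unadjusted p = 0.000271, adjusted p = 0.130 in edgeR). A two-sided exact permutation test of the single gene gave p = 0.00649, unadjusted. The adjusted p in edgeR moved across the threshold with the fit. It was 0.00767 with every gene of at least 1 count kept and 0.0217 with the library number as a term, and 0.408 without picrotoxin 3, the highest library.

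Fos (chromosome 12, 85473890 to 85477273, plus strand, protein coding) was at 287, 264, 278, 292, 216 and 266 in DMSO 1 to 6 and at 253, 240, 353, 347, 314 and 315 in picrotoxin 1 to 6. Picrotoxin 3 to 6 lay above every DMSO library, whereas picrotoxin 1 and 2 lay below all DMSO libraries but DMSO 5. The means were 267 ± 27.5 and 304 ± 47.3 (SD, n = 6), a log2 fold change of 0.20 ± 0.10 (SE, adjusted p = 0.694 in edgeR), and the interval of the fold ran from 0.991 to 1.32.

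JUN family. JUN is the main transactivating partner in AP-1, JUNB can both activate and limit JUN targets, and JUND is the more constitutively expressed member. Jun (chromosome 4, 95049034 to 95052222, minus strand) was at 81.2, 82.4, 96.3, 79.8, 72.8 and 85.7 in DMSO and at 47.0, 70.1, 69.4, 102, 120 and 65.4 in picrotoxin libraries 1 to 6. The picrotoxin libraries spanned the DMSO range on both sides, with 4 below it and 2 above. The coefficient of variation was 9.36% in DMSO and 33.9% with picrotoxin, and this difference in spread was not tested. The log2 fold change was -0.07 ± 0.15 (SE, adjusted p = 0.954 in edgeR).

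Junb (chromosome 8, 84974484 to 84978718, minus strand) was at 146, 109, 90.1, 138, 160 and 133 in DMSO and at 97.7, 151, 134, 122, 153 and 153 in picrotoxin libraries. No picrotoxin library lay outside the DMSO range. Its log2 fold change was 0.06 ± 0.13 (SE, adjusted p = 0.952 in edgeR), and the interval of the fold ran from 0.873 to 1.25. Jund (chromosome 8, 70698949 to 70700616, plus strand) was at 62.4, 42.7, 57.4, 68.6, 57.3 and 64.4 in DMSO and at 47.0, 51.0, 65.2, 84.3, 75.9 and 71.8 in picrotoxin libraries. Picrotoxin 4 to 6 lay above every DMSO library and picrotoxin 1 and 2 low in the DMSO range, for a log2 fold change of 0.17 ± 0.14 (SE, adjusted p = 0.849 in edgeR). Exons of Jun, Junb and Jund overlap Junos, Prdx2 and Gm11175 on the opposite strand, and since use of strand in the counting is not given in the sources used here, reads of each pair cannot be told apart.

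Other transcription regulators. Atf3 (chromosome 1, 191170296 to 191218039, minus strand), a stress-induced bZIP factor known to restrain inflammatory genes in macrophages, was at 88.4, 71.5, 68.6, 80.7, 54.8 and 68.1 in DMSO and at 85.7, 109, 76.8, 73.2, 84.0 and 88.9 in picrotoxin libraries. All 6 picrotoxin libraries lay above the DMSO mean, 2 of them above every DMSO library. The means were 72.0 ± 11.6 and 86.3 ± 12.7 (SD, n = 6), a fold of 1.21 (95% interval 1.01 to 1.45) and a log2 fold change of 0.28 ± 0.13 (SE, unadjusted p = 0.0386, adjusted p = 0.621 in edgeR). The exact permutation p was 0.0584, and the unadjusted p in edgeR was above 0.05 in the fits without DMSO 3, 5 or 6 or picrotoxin 1, 2 or 6.

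Egr1 (chromosome 18, 34859823 to 34864984, plus strand), a zinc finger factor induced through MAP kinases and SRF, varied most between libraries of a group. It was at 26.0, 17.9, 61.5, 30.6, 41.7 and 44.7 in DMSO and at 33.2, 14.9, 28.4, 36.1, 8.05 and 45 in picrotoxin libraries, the lowest from 7 molecules in picrotoxin 5 and the highest in DMSO 3. The log2 fold change was -0.40 ± 0.25 (SE, adjusted p = 0.756 in edgeR), and the interval of the fold, 0.530 to 1.08, leaves both a lower and a slightly higher level possible. With the matrix score as a covariate in edgeR it was -0.17 (unadjusted p = 0.530). DMSO 3, 5 and 6, the highest in Egr1 of their group, also had the highest matrix scores. Picrotoxin 6, at 45, had a score of 3.87. The part of the matrix score in these levels was not tested. Ier2 (chromosome 8, 84661331 to 84662852, minus strand), a nuclear regulator induced by growth factors, was at 13.5, 17.9, 24.6, 20.4, 21.3 and 16.1 in DMSO and at 20.3, 13.8, 15.8, 21.1, 12.7 and 20.4 in picrotoxin libraries. The groups overlapped almost wholly, at a log2 fold change of -0.11 ± 0.20 (SE, adjusted p = 0.951 in edgeR).

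Feedback regulators. Dusp1 (chromosome 17, 26505590 to 26562128, minus strand), which removes the activating phosphates of p38, JNK and ERK, was at 195, 195, 110, 199, 155 and 160 in DMSO and at 155, 128, 197, 252, 233 and 218 in picrotoxin libraries. Picrotoxin 4 to 6 lay above every DMSO library, and picrotoxin 1 and 2 lay below DMSO 1 and 2. The means were 169 ± 34.8 and 197 ± 47.4 (SD, n = 6), a log2 fold change of 0.23 ± 0.14 (SE, adjusted p = 0.753 in edgeR).

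Zfp36 (chromosome 7, 28376784 to 28380253, minus strand) encodes tristetraprolin, which binds AU-rich elements and speeds decay of cytokine mRNAs. It was at 146, 139, 74.8, 119, 115 and 96.7 in DMSO and at 98.6, 79.6, 127, 104, 120 and 118 in picrotoxin libraries. No picrotoxin library lay outside the DMSO range, and the lowest DMSO library was DMSO 3, as for Dusp1. The log2 fold change was -0.08 ± 0.14 (SE, adjusted p = 0.940 in edgeR). Exons of Dusp1 and Zfp36 overlap Ergic1 and Gm44710 on the opposite strand, with the same limit as above.

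**Figure D2:**
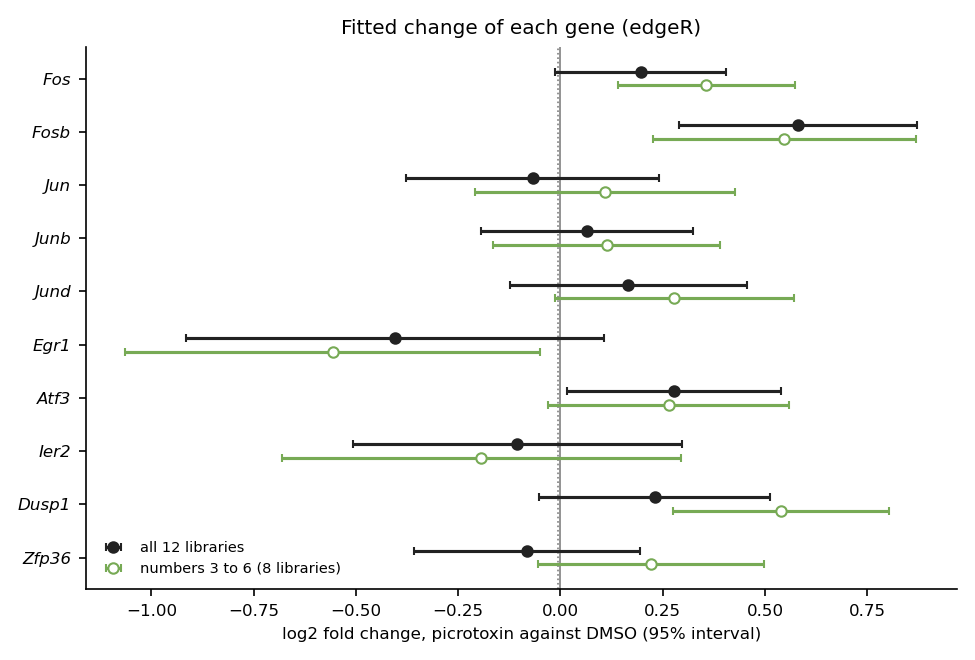
Log2 fold change of each gene, picrotoxin against DMSO, with its 95% interval from edgeR (horizontal axis), over all 12 libraries (filled) and over the 8 libraries numbered 3 to 6 (open); the dotted line is the median of all tested genes, -0.01. Over all libraries the intervals of Fosb and Atf3 lie above 0, and over numbers 3 to 6 those of Fos, Fosb and Dusp1 lie above 0 and that of Egr1 below.

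The difference between groups was also read within libraries numbered 1 and 2 and within those numbered 3 to 6, a split chosen with earlier results of these data known. For Dusp1, the log2 difference of picrotoxin from DMSO was -0.46 within numbers 1 and 2 (2 libraries per group) and 0.52 within numbers 3 to 6 (4 per group). Zfp36 went from -0.67 to 0.21, Fos from -0.16 to 0.34 and Jun from -0.48 to 0.09. Junb went from -0.04 to 0.11 and Jund from -0.10 to 0.26. Egr1 and Ier2 moved the other way, from 0.13 to -0.59 and from 0.11 to -0.23. The difference of Fosb held its size, at 0.69 and 0.53, as did that of Atf3, at 0.28 and 0.24. The labels do not say what the numbers stand for, so number and any batch cannot be told apart.

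A test of the difference between strata, an interaction term chosen after seeing the data, gave 0.99 on the log2 scale for Dusp1 ± 0.22 (SE, unadjusted p = 4.68e-05, adjusted p = 0.108 in edgeR). It gave 0.89 for Zfp36 (adjusted p = 0.168), 0.52 for Fos (adjusted p = 0.659) and 0.60 for Jun (adjusted p = 0.811), also in edgeR. These 4 of 10 had an unadjusted p under 0.05, against 5.79% of tested genes, and 0 of 10 had an adjusted p under 0.05, against 0% of tested genes (0 of 9580, with 555 unadjusted). As the term was chosen after seeing the data, the count of 4 beside that share is a description and cannot show an excess. The interaction was tested in edgeR alone, and its estimate rests on 2 libraries per group in the smaller stratum. For Fosb it was -0.16 (adjusted p = 0.977), for Atf3 -0.02 (adjusted p above 0.99) and for Egr1 -0.72 (adjusted p = 0.896) in edgeR.

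Within numbers 3 to 6 alone, 1 of 10 had an adjusted p under 0.05, against 0.511% of tested genes, and 4 of 10 an unadjusted p under 0.05, against 9.42%. Dusp1 was the gene past adjustment, higher with picrotoxin by a log2 fold change of 0.54 ± 0.13 (SE), a fold of 1.45 (adjusted p = 0.0448 in edgeR, n = 4 per group). Of the others, Fos was at 0.36 (adjusted p = 0.179), Fosb at 0.55 (adjusted p = 0.159) and Egr1 at -0.56 (adjusted p = 0.479) in edgeR. Over all libraries Dusp1 was at 0.23, so its call rests on leaving out libraries 1 and 2. With each library left out it ran from 0.13 (without DMSO 3) to 0.32 (without picrotoxin 2), and it was 0.14 with the matrix score as a covariate. In numbers 3 to 6 the matrix score was 5.39, 4.06, 7.09 and 4.77 in DMSO and 3.50, 4.22, 4.33 and 3.87 in picrotoxin libraries. In numbers 1 and 2 it was 3.69 and 3.73 against 4.01 and 3.68. Its part in the call of Dusp1 and in the lower estimate of Egr1 was not tested. Between strata, regardless of group, 8 of the 10 genes were higher in numbers 3 to 6, with a median log2 difference of 0.17 against 0.02 over all tested genes, and the ranges of all 10 overlapped.

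**Figure D3:**
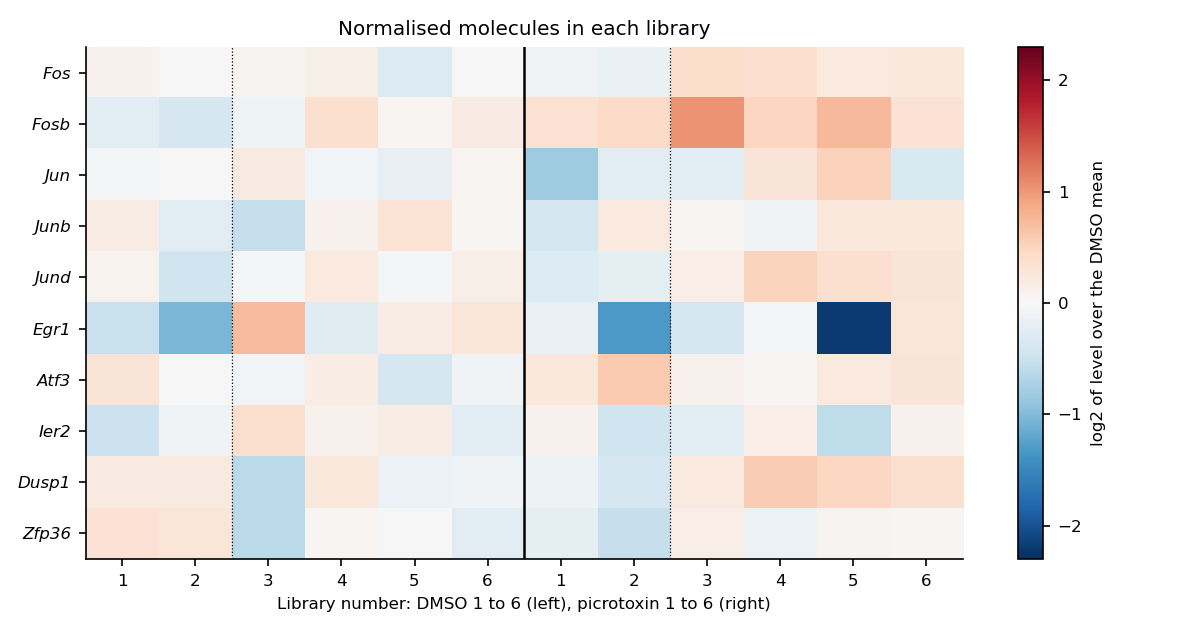
Log2 of the normalised molecules of each gene over its DMSO mean (colour scale) in the 12 libraries, DMSO 1 to 6 on the left and picrotoxin 1 to 6 on the right of the solid line; dotted lines follow number 2. Fosb is above its DMSO mean in all 6 picrotoxin libraries, Dusp1 and Fos are above theirs in picrotoxin 3 to 6 and below in 1 and 2, and the lowest value is that of Egr1 in picrotoxin 5.

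The spread between libraries of a group was described by the biological coefficient of variation (BCV) of edgeR, the part of the variation that exceeds counting noise. It lay above the trend of genes of like level for 7 of the 10, whereas 37.5% of tested genes lay above theirs. That share covers genes of all levels, and the share among genes as abundant as the 10 was not counted. Egr1 had the widest spread, a BCV of 0.264 at a trend of 0.131. Dusp1 followed at 0.174 and Jun at 0.165. Zfp36, at 0.154, and Junb, at 0.148, had trends of 0.132. Fosb and Jund, both at 0.136, lay only just above trends of 0.131. Fos, at 0.128, Atf3, at 0.126, and Ier2, at 0.0957, lay below their trends of 0.132, 0.131 and 0.134.

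**Figure D4:**
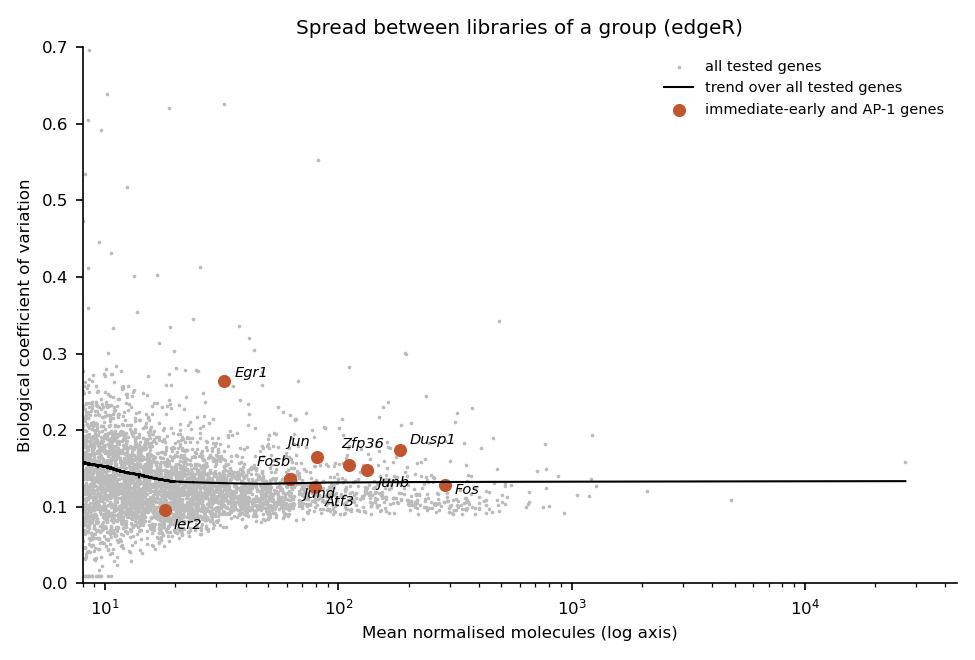
BCV of each tested gene (vertical axis, up to 0.7) against its mean normalised molecules over both groups (horizontal log axis, from 8), with the trend over all tested genes as a line and the 10 genes as large points. Egr1 stands highest of the 10 at 0.264, and Fos, Atf3 and Ier2 lie below the line.

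From library to library the 10 genes showed little common movement. Over the 45 pairs of genes, the median Pearson r of log2 expression (TMM-scaled counts, prior count 2), centred within each group, was 0.0437 over 12 libraries, 25 pairs were above 0, and r ran from -0.534 to 0.820. No pair had an adjusted p under 0.05 by a permutation test within groups, for Pearson or Spearman, and 4 had an unadjusted Pearson p under 0.05. Dusp1 and Zfp36 gave the highest r, 0.820 (Spearman rho 0.629, permutation p = 0.00227, adjusted over 45 pairs 0.102). Without DMSO 3 and picrotoxin 2, where both genes were low, r was 0.504, and within numbers 3 to 6 it was 0.654. Egr1 and Ier2 gave r = 0.759 (rho 0.811, permutation p = 0.0068, adjusted 0.153), 0.772 without picrotoxin 5 and DMSO 2, and 0.776 within numbers 3 to 6. Fos and Jund gave r = 0.656 and Fos and Dusp1 r = 0.631 (permutation p adjusted over 45 pairs 0.379 each), and within numbers 3 to 6 these were 0.361 and 0.0775. All genes of a library share its depth and scaling.

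With the mean over the 10 genes, Jund correlated best (r = 0.891), then Fos (0.769) and Dusp1 (0.679), and Atf3 was at -0.233, each over 12 libraries and with the gene itself in the mean. The order changed with the libraries used. Within numbers 3 to 6 the r was 0.640 for Dusp1, 0.612 for Jund, 0.473 for Fos and 0.404 for Atf3, and that of Jun was -0.372 against 0.339 over all libraries. Among 3731 candidates of a mean of at least 10 normalised molecules outside the 10, the 6 genes most like this mean were Cln3 (r = 0.905), Cep83 (0.874), Pcbp1 (0.870), Ctbp2 (0.866), Pik3cd (0.855) and Dnase2a (0.842). None of these is in a list of related genes. Within numbers 3 to 6 their r was 0.791, 0.773, 0.591, 0.675, 0.278 and 0.766. The related gene that ranked highest was Zfp36l2, at rank 46 with r = 0.675. These r are a description over libraries that share their depth. The 6 genes were picked as the highest of 3731 over 12 libraries, and how high r would reach by chance was not tested. Libraries numbered 3 to 6 are part of the 12, so their r are no independent check. Cln3, Pcbp1, Ctbp2 and Dnase2a overlap exons of other genes.

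Other AP-1 subunits were measured in the same libraries, and 13 of 13 were tested. None had an adjusted p under 0.05 in edgeR, 3 were higher and 0 lower at an unadjusted p under 0.05, against 3.65% of all tested genes called higher, and 10 were above 0, with a median log2 fold change of 0.16 against -0.01 over all tested genes. Mafg, a small MAF protein that pairs with CNC and other bZIP factors, was at 10.4 to 25.0 normalised molecules in DMSO and at 26.7 to 36.8 in picrotoxin libraries, with means of 19.2 ± 5.40 and 31.4 ± 3.88 (SD, n = 6). Its groups did not overlap, which held for 0.386% of all tested genes. Its log2 fold change was 0.69 ± 0.18 (SE, unadjusted p = 0.000531, adjusted p = 0.182 in edgeR). Its exons overlap those of Sirt7 on the same strand, so its count is uncertain. Batf, a FOS-like partner of JUN proteins, had a log2 fold change of 1.03 (adjusted p = 0.640 in edgeR) from means of 1.81 and 3.84 normalised molecules. Maf was at 0.19 (adjusted p = 0.826 in edgeR).

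Other immediate-early genes had 19 of 20 members tested, Egr3 being too low with 10 molecules in all. None had an adjusted p under 0.05 in edgeR, and 3 were higher and 1 lower at an unadjusted p under 0.05, against 7.77% of all tested genes called in either direction, with 11 above and 8 below 0 and a median log2 fold change of 0.02. Sgk1, a kinase induced by serum and glucocorticoids, was at 39.7 ± 7.97 in DMSO and 52.2 ± 5.40 with picrotoxin (SD, n = 6), above the DMSO mean in 6 of 6, with a log2 fold change of 0.40 (unadjusted p = 0.00905, adjusted p = 0.426 in edgeR). Csrnp1, a nuclear regulator, was at 0.54 (adjusted p = 0.539) and the factor Klf2 at 0.48 (adjusted p = 0.621). The most abundant of the list, Klf6, Ier3 and Klf4, were at 0.07, 0.24 and 0.24, the lowest adjusted p of these being 0.756 in edgeR. Cyr61, which encodes a matricellular protein, was the lower gene (unadjusted p = 0.000294, adjusted p = 0.134 in edgeR). It had 0, 0, 41, 2, 6 and 10 molecules in DMSO 1 to 6, 2 in picrotoxin 4 and 0 in the other 5 of 6 picrotoxin libraries. DMSO 3 had the second highest matrix score, and its part in this difference was not tested.

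The MAP kinase cascade and SRF factors, which act upstream, had 18 of 19 members tested (not Map2k6). In edgeR there were 0 adjusted calls, against 0.0522% of all tested genes, and 1 unadjusted, against 7.77%. The latter was Map2k2, a kinase that activates ERK, at a log2 fold change of -0.42 (adjusted p = 0.642 in edgeR). The median of the list was 0.13. Mapkapk2, a kinase downstream of p38, was at 0.04. Of the dual-specificity phosphatases other than Dusp1, 6 of 11 were tested, with 0 adjusted and 0 unadjusted calls in edgeR against the same shares. Their median was 0.16, and Dusp6, an ERK phosphatase, was at 0.22 and Dusp3 at 0.11.

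Factors of mRNA decay and stability other than Zfp36 were all tested (11 of 11). They had 0 adjusted calls in edgeR, against 0.0522% of all tested genes, and 1 unadjusted, against 7.77%. The latter was Elavl1, which stabilises AU-rich mRNAs, at a log2 fold change of -0.40 (adjusted p = 0.621 in edgeR). The ZFP36 relatives Zfp36l1 and Zfp36l2 were at 0.20 and 0.22 and Hnrnpd at -0.05. Of 9 transcripts known to be bound by ZFP36, 6 were tested (not Il6, Il10 and Csf2). They had 0 adjusted and 0 unadjusted calls in edgeR, against the same shares, and a median of -0.12. Il1b was at 0.11, Cxcl2 at -0.19 and Ptgs2 at -0.12.

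Heat shock genes, which respond to cell stress and were read as a comparison, had 10 of 10 tested, and 1 adjusted call in edgeR, Hspa1b (log2 fold change 1.74, adjusted p = 0.0311), against 0.0522% of all tested genes. No gene, Hspa1b included, passed adjustment in edgeR without DMSO 5 or 6, without picrotoxin 2, 3 or 4, or with the matrix score as a covariate. Hspa1a, which shares 2201 bases with it so that the counts of the pair are uncertain, was at 1.25 (adjusted p = 0.0598). Hspe1 was at -0.31 (unadjusted p = 0.0241, adjusted p = 0.550). The median of the list was 0.03, with 5 genes above and 5 below 0, and Hspa8, Hsp90aa1 and Hsp90ab1 were at 0.14, -0.04 and -0.08.

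**Figure D5:**
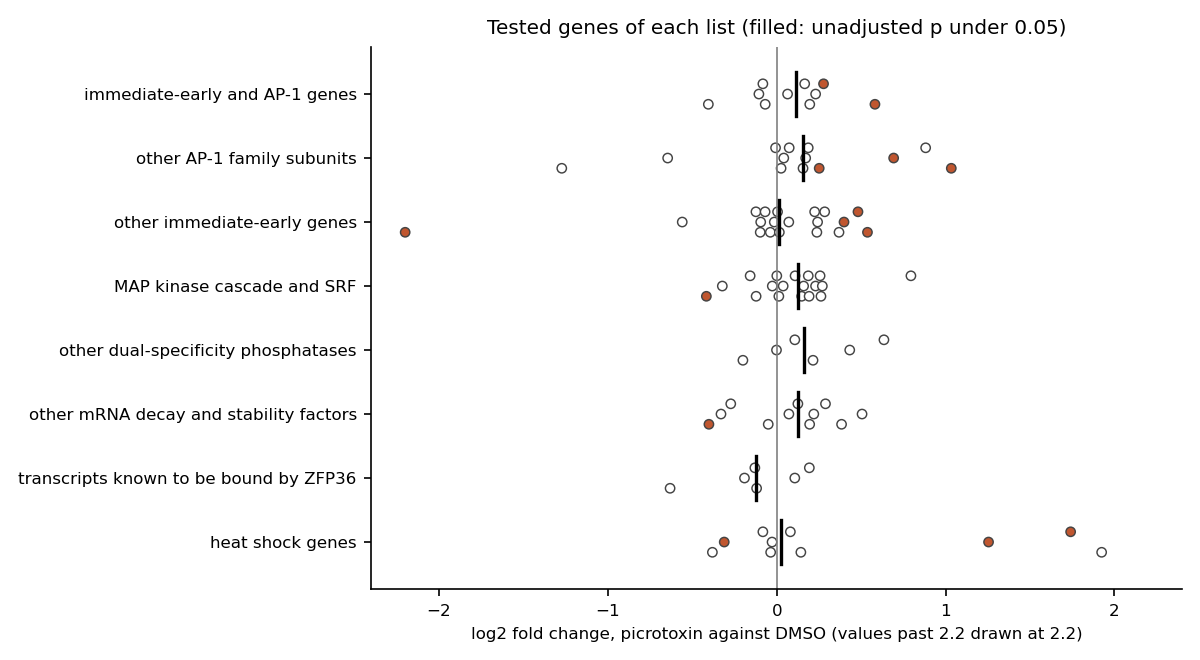
Log2 fold change, picrotoxin against DMSO (horizontal axis, values past 2.2 drawn at 2.2), of each tested gene of the 10 immediate-early and AP-1 genes and of 7 related lists; black bars are list medians, and filled points have an unadjusted p under 0.05 in edgeR. The medians lie between -0.12 and 0.16, and the point at the left edge is Cyr61.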

How the data were processed

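Transcripts were counted in 6 DMSO and 6 picrotoxin libraries. The table that the authors deposited holds counts, whole numbers of molecules for each gene symbol, and 0 columns of the table were left unmatched to a sample. Per the labels, heat-fragmented RNA was copied with an oligo-dT primer carrying a molecular barcode, so a count stands for a barcode and favours 3′ ends. The submitters' processing notes name STAR and mm10, and the annotation was refFlat. Treatment of multi-mapped reads, strand and barcode errors is not given in the sources used here.

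Genes with a mean normalised count above 1 were tested (9580 of 24781 rows). Groups were compared with edgeR 4.0.16 (quasi-likelihood F-test, TMM, Benjamini-Hochberg over all tested genes). DESeq2 1.42.0 and limma 3.58.1 (voom) were alternatives, in R 4.3.3. Standard errors were derived from the log2 fold change and F. Normalised molecules are counts divided by DESeq2 size factors. Exact two-sided permutation tests used every assignment of 6 of 12 libraries, whose smallest p is 0.00216, and correlations used 100000 permutations within groups. The fit was also run on simulated counts, drawn independently for each gene and library, with the outcome not reported here. They held no shared mice, number strata or matrix differences, so that run cannot speak to these. Before averaging, the 30 pairs of libraries of a group were compared by chi-square over genes with at least 10 molecules and differed by more than sampling noise (1.23 to 3.15 per degree of freedom).

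The 10 genes, the lists and most alternatives were chosen with earlier results of these data known, and the interaction with library number after seeing the data. Named genes were the 10, those of each related list with an unadjusted p under 0.05 and its 3 most abundant, and the 6 genes most like the mean of the 10. Some genes under this rule are counted among the tests but not reported here by name. Positions are from GENCODE release 21 on GRCm38, which differs from the authors' annotation, and promoters from RefSeq on GRCm38.p6 (8 of 10 matched).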

Additional observations from a re-analysis of the deposited data

Results flagged for a closer look

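Fos in DMSO 5 stood apart from the other libraries of its group, at 216 normalised molecules against 264 to 292. It was 1 of 20 such tests (10 genes in 2 groups), where 1 is expected by chance. The same library had the highest matrix score, and the part of this in its Fos level was not tested. The log2 fold change of Fos was 0.14 without DMSO 5 and 0.20 with it, and neither had an unadjusted p under 0.05 in edgeR.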

How the results depend on the processing

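Of 240 values of the 10 genes over 24 alternatives, 210 kept direction and side of an unadjusted p of 0.05, 11 lost it (all Atf3), 14 gained it and 5 changed sign. The sign changes were Junb at -0.021 without DMSO replicate 3, Jun at 0.050 without picrotoxin replicate 1 and 0.11 in replicates 3 to 6 alone, Zfp36 at 0.22 in replicates 3 to 6 alone, and Ier2 at 0.00 (0.0041) with the matrix score. With each library left out, Jun ran from -0.22 to 0.050 and Junb from -0.021 to 0.15. Fosb had an unadjusted p under 0.05 in all 24, with log2 fold changes from 0.47 to 0.65 and adjusted p-values from 0.00767 to 0.434 (matrix score), 0.0537 in DESeq2. Of the 10, the number with an adjusted p under 0.05 was 0, but 1 with every gene of at least 1 count (Fosb), the replicate block (Fosb), the number term (Fosb) and replicates 3 to 6 alone (Dusp1). The number unadjusted was 2, but 1 with library totals, in DESeq2 and with the matrix score, 3 with the replicate block and with the number term, 4 with every gene of at least 1 count and in replicates 3 to 6, and 1 to 3 when each library was left out, with 1 without DMSO replicate 3, 5 or 6. Over all tested genes, 5 adjusted calls became 13 with library totals, 81 with every gene, 3 in limma-voom, 43 with the replicate block, 27 with the number term, 49 in replicates 3 to 6, 0 with the matrix score (557 unadjusted), 12 without Rn45s and 0 to 25 when each library was left out. The causes were not tested. Correlations of deviations between same-numbered libraries ran from -0.0164 to 0.0469, with 0 of 6 above 0.1. The labels do not say whether equal numbers mark pairs, and these correlations cannot settle it. At these depths the 95% intervals of the folds reach from 0.530 to 1.83.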
